A study of Saccharomyces cerevisiae with 6 samples.

Results

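Amino acid biosynthesis genes were taken as 60 genes given by systematic name, which encode enzymes of arginine (9 genes), histidine (7), lysine (7), leucine (4), isoleucine and valine (7), tryptophan (5), the shikimate route with phenylalanine and tyrosine (7), methionine (4), homoserine (3), threonine (2), serine (3) and proline (2) synthesis. Each gene's H3K4me3 peak was looked up in the list of its genotype, with the widest peak taken where a gene had more than 1, out of 4868 genes with a peak in *jhd2∆* and 4628 in WT. Cells of *S. cerevisiae* were grown in YAR, a synthetic medium with raffinose as carbon source, ammonium as nitrogen source and no amino acids, to an optical density of 0.5. ChIP libraries of H3K4me3 and pan-H3 were sequenced to about 14000000 reads of 51 bp per sample by the methods, while the lists hold no read totals. The *jhd2∆* strain lacks *JHD2*, the only yeast JmjC demethylase known to act on H3K4, and carries a hygromycin marker in its place, and the WT strain carries *JHD2*. Both are described as prototrophic strains of the BY4742 background, a background known for auxotrophic alleles of *HIS3*, *LEU2*, *LYS2* and *URA3*. There was 1 H3K4me3 library per genotype, so no difference below has a replicate check, no p-value is given, and genes are not treated as replicates.

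H3K4me3 is laid down by the Set1 methyltransferase, which travels with RNA polymerase II early in transcription, and it is found as a domain over the promoter-proximal nucleosomes and the 5′ end of transcribed genes. Jhd2 removes the mark. In yeast growing without amino acids each of these pathways must run, and many of its genes are controlled by the general activator Gcn4 together with pathway-specific factors such as Leu3, Lys14 and Met4.

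The labels were checked first. *JHD2* (YJR119C) had no peak in *jhd2∆*, whereas in WT it had a peak of 503 bp with a pileup of 250. That pileup exceeded only 8.17% of genes in WT, so the missing peak is a limited check. *HIS3*, *LEU2*, *LYS2* and *URA3* had a peak in both genotypes. Of 5 genes expressed in a cells, *STE2*, *STE6* and *BAR1* had a peak in both genotypes and *MFA1* and *MFA2* in neither. The pileups of *STE2*, *STE6* and *BAR1* exceeded those of 82.9%, 79.0% and 60.1% of genes in *jhd2∆* and 80.4%, 86.4% and 33.8% in WT. None of 3 genes expressed in alpha cells (*STE3*, *MF(ALPHA)1* and *MF(ALPHA)2*) had a peak assigned in either genotype. Next to *STE3* and *MF(ALPHA)2* 1 peak number was skipped in each list, so those intervals may hold a peak call that was not assigned to these genes. Next to *MF(ALPHA)1*, *MFA1* and *MFA2* 0 numbers were skipped in each list. These entries do not settle the mating type. GEO's labels give the mating type as a, while the study's strain list gives alpha for the strains of these names. Pileup, the height of the stacked reads at a peak, had a median of 272 over the *jhd2∆* peaks and 301 over the WT peaks. The study describes a normalization that sets the total H3K4me3 signal of *jhd2∆* and WT cells equal. Its western blots showed more bulk H3K4me3 in *jhd2∆* than in WT cells grown in YAR, and its ChIP-Seq showed broader domains across many genes. The study proposes that H3K4me3 may rise genome-wide in *jhd2∆*, and that this normalization leaves the rise visible only at the edges of some regions. By ChIP-qPCR it found more H3K4me3 in *jhd2∆* at *MRPL17*, *PMA1* and *YEF3*, which had shown no breadth change in its ChIP-Seq. A breadth difference below is thus not a measure of the H3K4me3 level at a gene. How the normalization bears on the deposited pileups is not stated. Pileups were therefore compared only within a list, and the part of this normalization and of the pileup gap in the breadth differences was not tested. In bulk ChIP, a domain that is wider in every cell and one that is wider in some of the cells cannot be told apart.

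A total of 57 members had a peak in *jhd2∆* and the same 57 had a peak in WT. The share of all 6021 protein-coding genes in RefSeq with a peak was 78.5% in *jhd2∆*, 74.3% in WT and 73.1% in both. The remaining 3 members, *ARG2* (YJL071W), *THR1* (YHR025W) and *SER3* (YER081W), had no peak assigned to them in either genotype. *ARG2* encodes acetylglutamate synthase at the entry to arginine synthesis, *THR1* homoserine kinase, and *SER3* 3-phosphoglycerate dehydrogenase. Peaks are numbered by position in each list, and in each list 1 number was skipped between the listed genes on either side of each of these 3. Each interval may thus hold 1 peak call that was given to no gene in RefSeq. It also spans another gene, and whether the call lies at the member itself was not checked. A missing entry here is a missing assignment of a peak to the gene, not a measured lack of H3K4me3.

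The peaks of these genes were broad in both genotypes. Their median breadth was 885 bp in *jhd2∆* and 825 bp in WT, where all genes listed in both genotypes had medians of 679 bp in *jhd2∆* and 658 bp in WT. The median member peak was broader than those of 83.5% of listed genes in *jhd2∆* and 80.8% in WT, and its pileup exceeded that of 77.7% of genes in *jhd2∆* and 72.6% in WT. In WT, 32 of 57 members stood in the broadest quintile of genes and 24 of 57 in the quintile of highest pileup. Breadths in the 2 genotypes followed each other across the 57 members (Pearson's r 0.93, Spearman's rho 0.917), as they did across all genes (r 0.915). These correlations are descriptions over genes that share the same pair of libraries.

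Member peaks were on the whole wider in *jhd2∆*. The median difference, *jhd2∆* minus WT, was 45 bp with quartiles of 3 and 93 bp, a range of -64 to 283 bp and a mean of 56.0 bp (SD over genes 72.0, n = 57). Over all 4526 genes it was 17 bp, with quartiles of -14 and 60 bp. A wider peak in *jhd2∆* was found at 45 of 57 members (78.9%, against 63.2% of all genes) and a narrower one at 11 (against 35.9% of all genes), and *ARO7* had peaks of equal breadth. By more than 100 bp, 13 members (22.8%) were wider, against 14.2% of all genes, and 0 were narrower, against 1.3%. At a limit of 50 bp, 26 were wider (against 29.1% of 4526 genes) and 1 narrower (against 5.86%), so that the share of members wider by this limit was 45.6%. At 200 bp, 2 were wider (against 3.62%) and 0 narrower (against 0.464%). These 13 were *SER1*, *LEU4*, *ILV2*, *ARO3*, *ARG3*, *ARG7*, *ARG1*, *BAT1*, *LYS4*, *LEU1*, *LEU2*, *LYS9* and *HOM6*. The values nearest the limit were 108 bp at *LYS9* and *HOM6*, just inside it, and 99 bp at *ILV1*, just outside.

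**Figure D1:**
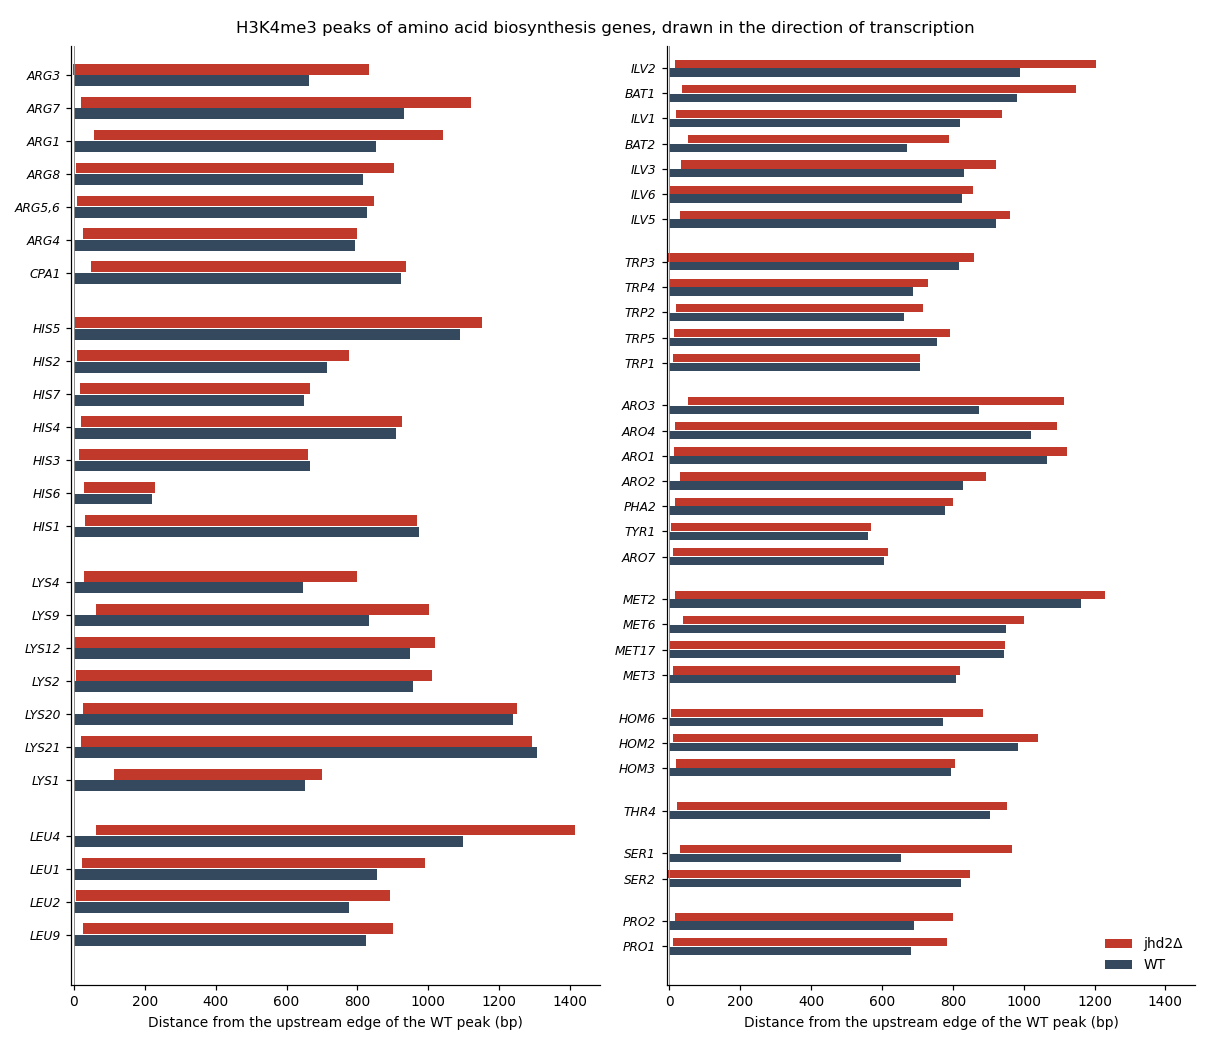
H3K4me3 peaks of 56 of the 57 genes with a peak in both genotypes, drawn in the direction of transcription with *jhd2∆* (red) above WT (dark blue). The x axis gives the distance in bp from the upstream edge of the WT peak. Most red bars begin inside the left end of the dark bar and end beyond its right end, furthest at *LEU4* and *SER1*, and *HIS6* has by far the shortest bars.

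The added breadth lay on the side of the gene body. Edges were oriented by the strand letter of the systematic name. The downstream edge lay further into the gene in *jhd2∆* at 54 of 57 members (94.7%, against 77.4% of all genes), with a median shift of 56 bp against 29 bp over all genes. *HIS1*, *HIS3* and *LYS21* were the exceptions. The upstream edge lay closer to the gene at 52 of 57 members (91.2%, against 80.6%), with a median shift of -16 bp against -13 bp. The 5 others were *ARG3*, *LYS12*, *TRP3*, *TRP4* and *SER2*, with shifts of 0 to 7 bp. A difference in breadth is the sum of both shifts, so it is tied to each by construction. Across members its correlation was 0.964 with the downstream shift and -0.0647 with the upstream shift (Pearson's r), where all genes had 0.925 with the downstream shift and 0.326 with the upstream shift. The 13 member peaks that gained over 100 bp were chosen on that sum, and as a description their downstream shifts were 114 to 314 bp and their upstream shifts -63 to 2 bp.

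**Figure D2:**
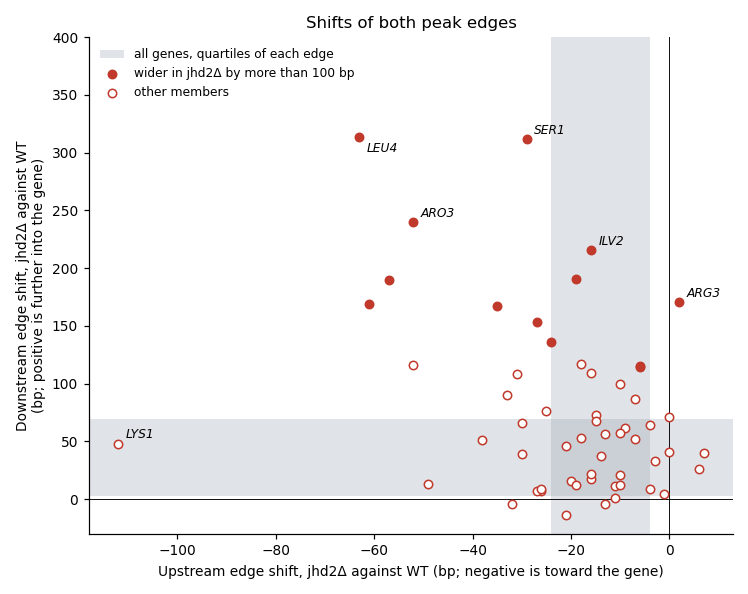
Shift of the downstream edge (y axis, bp, positive further into the gene) against shift of the upstream edge (x axis, bp, negative toward the gene), *jhd2∆* against WT, for 57 members. Filled points are the 13 members wider by more than 100 bp, and grey bands are the quartiles of each edge over all genes. Filled points lie high on the y axis, at 114 bp and above, and *LYS1* stands alone at -112 bp on the x axis.

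Pathways differed in how far their peaks extended. In order of the median difference, serine genes stood at 157.5 bp (2 genes), leucine at 110.5 bp (4), proline at 91.5 bp (2), arginine at 78.5 bp (8), isoleucine and valine at 64 bp (7), homoserine at 47 bp (3), lysine at 45 bp (7), shikimate and aromatic genes at 36 bp (7), tryptophan at 35 bp (5), threonine at 25 bp (1), methionine at 8 bp (4) and histidine at -4 bp (7). With so few genes in a pathway these medians rest on single genes, and ranges overlapped: leucine genes spanned 51 to 251 bp and histidine genes -36 to 60 bp. Neighbours in this order overlapped throughout, and no test of the order was possible with 1 library per genotype. Pathways also differed in WT pileup, whose median percentile ran from 46.5% for proline to 97% for threonine. Their median coding lengths ran from 1007 bp for histidine to 1836.5 bp for leucine. Whether pileup or coding length had a part in the order was not tested.

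**Figure D3:**
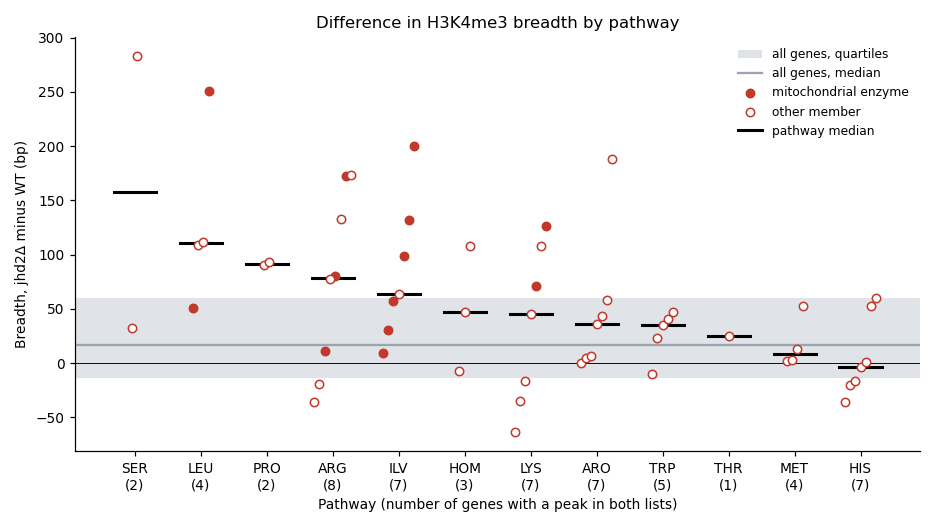
Difference in peak breadth (*jhd2∆* minus WT, bp) of each member, by pathway, with pathways in order of their median (black bars) and the number of genes listed in both genotypes in brackets. Filled points are enzymes that act in mitochondria, and the grey line and band are the median and quartiles of all genes. All filled points lie above 0, and histidine genes lie between -36 and 60 bp.

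Leucine, isoleucine and valine share a mitochondrial route that starts from pyruvate and, for isoleucine, from threonine. All 11 of these genes had wider peaks in *jhd2∆* than in WT (against 63.2% of all genes), with a median difference of 99 bp. *LEU4* (YNL104C), the main alpha-isopropylmalate synthase that commits carbon to leucine, had a peak of 1350 bp in *jhd2∆* (chromosome XIV, 425479 to 426828, pileup 305), against 1099 bp in WT (425793 to 426891, pileup 332). This difference of 251 bp was made by a downstream edge 314 bp further into the gene and an upstream edge 63 bp closer to it. Its paralog *LEU9* (YOR108W), which catalyses the same reaction, had a peak of 876 bp in *jhd2∆* (chromosome XV, 522914 to 523789, pileup 284), against 825 bp in WT (522889 to 523713, pileup 290), a difference of 51 bp. *LEU1* (YGL009C), the isopropylmalate isomerase of the cytosol, had a peak of 968 bp in *jhd2∆* (chromosome VII, 477772 to 478739, pileup 295), against 856 bp in WT (477908 to 478763, pileup 325). The gain of 112 bp again came with a downstream shift, of 136 bp, and an upstream shift of -24 bp. *LEU2* (YCL018W) encodes beta-isopropylmalate dehydrogenase and had a peak of 885 bp in *jhd2∆* (chromosome III, 91303 to 92187, pileup 285), against 776 bp in WT (91297 to 92072, pileup 296), with shifts of 115 bp downstream and -6 bp upstream.

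*ILV2* (YMR108W), the catalytic subunit of acetolactate synthase, had a peak of 1189 bp in *jhd2∆* (chromosome XIII, 483873 to 485061, pileup 293), against 989 bp in WT (483857 to 484845, pileup 323). The regulatory subunit of the same enzyme, *ILV6* (YCL009C), had a peak of 855 bp in *jhd2∆* (chromosome III, 104702 to 105556, pileup 311), against 825 bp in WT (104735 to 105559, pileup 334). The catalytic subunit thus differed by 200 bp and the regulatory subunit by 30 bp. Branched-chain aminotransferase is encoded by *BAT1* for mitochondria and *BAT2* for the cytosol. *BAT1* (YHR208W) had a peak of 1113 bp in *jhd2∆* (chromosome VIII, 517479 to 518591, pileup 300), against 981 bp in WT (517444 to 518424, pileup 320), with a downstream shift of 167 bp and an upstream shift of -35 bp. *BAT2* (YJR148W) had a peak of 736 bp in *jhd2∆* (chromosome X, 705648 to 706383, pileup 275), against 672 bp in WT (705596 to 706267, pileup 278), with a downstream shift of 116 bp and an upstream shift of -52 bp. Both aminotransferase genes were displaced at both edges, and their breadths differed by 132 and 64 bp. *ILV1*, threonine deaminase, was wider by 99 bp, and *ILV3*, dihydroxyacid dehydratase, by 57 bp. The smallest difference of the route was at *ILV5* (YLR355C), the acetohydroxyacid reductoisomerase that also binds mitochondrial DNA, with 932 bp in *jhd2∆* (chromosome XII, 838383 to 839314, pileup 336), against 923 bp in WT (838422 to 839344, pileup 350). *ILV5* had the highest pileup of all members in both genotypes, above 99.5% of genes in *jhd2∆* and 98.4% in WT.

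Arginine is made from glutamate through acetylated intermediates in mitochondria up to ornithine, and then in the cytosol. Of 8 arginine genes with peaks, 6 were wider in *jhd2∆* (75%, against 63.2% of all genes) and 2 narrower (against 35.9%). *ARG7* (YMR062C) encodes the mitochondrial ornithine acetyltransferase, which can also supply the acetylglutamate made by the product of *ARG2*, and it had a peak of 1102 bp in *jhd2∆* (chromosome XIII, 395328 to 396429, pileup 266), against 930 bp in WT (395519 to 396448, pileup 302). *ARG3* (YJL088W), ornithine carbamoyltransferase, had a peak of 836 bp in *jhd2∆* (chromosome X, 268852 to 269687, pileup 266), against 663 bp in WT (268854 to 269516, pileup 276). *ARG1* (YOL058W), argininosuccinate synthetase, had a peak of 985 bp in *jhd2∆* (chromosome XV, 219136 to 220120, pileup 267), against 852 bp in WT (219079 to 219930, pileup 259). At these 3 genes the downstream edge lay 191, 171 and 190 bp further in, and the upstream edge shifted by -19, 2 and -57 bp. The rank of the *ARG1* pileup also differed, and was above 39.8% of genes in *jhd2∆* and 11.5% in WT. Such gaps were not particular to *ARG1*: *LYS20* stood above 94.2% of genes in *jhd2∆* and 58.6% in WT, and *SER1* above 52.1% and 70.6%. The last enzyme, argininosuccinate lyase, is encoded by *ARG4*, whose peaks differed by -19 bp, and the mitochondrial enzymes *ARG8* and *ARG5,6*, acetylornithine aminotransferase and the kinase and reductase before it, differed by 80 and 11 bp.

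*CPA1* (YOR303W), a gene of carbamoyl phosphate synthesis, had the most negative difference of the pathway. Its peak was 887 bp in *jhd2∆* (chromosome XV, 882703 to 883589, pileup 293), against 923 bp in WT (882654 to 883576, pileup 339). The difference of -36 bp was made by an upstream edge 49 bp closer to the gene and a downstream edge 13 bp further into it.

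Histidine is made from ATP and phosphoribosyl pyrophosphate in a route that also releases an intermediate of purine synthesis. Its genes had the lowest median difference of the pathways. Of the 7, 3 were wider in *jhd2∆* (42.9%, against 63.2% of all genes) and 4 narrower (against 35.9%). Their median downstream shift was 16 bp. *HIS5* (YIL116W), histidinol-phosphate aminotransferase, had a peak of 1148 bp in *jhd2∆* (chromosome IX, 142819 to 143966, pileup 279), against 1088 bp in WT (142815 to 143902, pileup 289), the largest difference of the pathway at 60 bp. *HIS1* (YER055C), the ATP phosphoribosyltransferase of the entry step, had a peak of 937 bp in *jhd2∆* (chromosome V, 264927 to 265863, pileup 303), against 973 bp in WT (264923 to 265895, pileup 339). *HIS3* (YOR202W), imidazoleglycerol-phosphate dehydratase, had a peak of 648 bp in *jhd2∆* (chromosome XV, 721927 to 722574, pileup 301), against 665 bp in WT (721914 to 722578, pileup 321). At *HIS1* and *HIS3* both edges moved inward, by 32 and 4 bp at *HIS1* and by 13 and 4 bp at *HIS3*, with the upstream edge given first. The *HIS1* peak was broader than the coding length of 893 bp in both genotypes.

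*HIS6* (YIL020C), the isomerase of the route, stood apart from every other member. Its peak was 201 bp in *jhd2∆* (chromosome IX, 314688 to 314888, pileup 208), against 221 bp in WT (314695 to 314915, pileup 224). No other gene of the *jhd2∆* list had a narrower widest peak, and its pileup exceeded that of 2.2% of genes in *jhd2∆* and 3.29% in WT. The next narrowest member peaks were at *TYR1*, with 566 bp in *jhd2∆* and 561 bp in WT. *HIS2* (histidinolphosphatase, 53 bp), *HIS7* (imidazole glycerol phosphate synthase, 1 bp) and *HIS4* (a multifunctional enzyme of several steps, -4 bp) completed the pathway. The *HIS4* pileup was high, above 95.3% of genes in *jhd2∆* and 96.2% in WT.

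Lysine is made in yeast through alpha-aminoadipate, and 4 of its 7 genes were wider in *jhd2∆* (57.1%, against 63.2% of all genes). The paralogs *LYS20* (YDL182W) and *LYS21* (YDL131W) encode homocitrate synthase, the entry enzyme, and had among the broadest peaks of all members. *LYS20* had 1223 bp in *jhd2∆* (chromosome IV, 133425 to 134647, pileup 310), against 1240 bp in WT (133399 to 134638, pileup 307). *LYS21* had 1271 bp in *jhd2∆* (chromosome IV, 227365 to 228635, pileup 316), against 1306 bp in WT (227344 to 228649, pileup 331). Both were narrower in *jhd2∆*, by 17 and 35 bp, and each peak had a breadth of 95.1% to 98.8% of the coding length of its gene. This is a ratio of lengths, and the overlap with the coding region was not measured.

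The later lysine enzymes differed in both directions. *LYS4* (YDR234W), mitochondrial homoaconitase, had a peak of 773 bp in *jhd2∆* (chromosome IV, 931187 to 931959, pileup 286), against 647 bp in WT (931160 to 931806, pileup 299). *LYS9* (YNR050C), the saccharopine dehydrogenase that forms saccharopine, had a peak of 942 bp in *jhd2∆* (chromosome XIV, 714475 to 715416, pileup 294), against 834 bp in WT (714644 to 715477, pileup 314). The downstream edge lay 153 bp further in at *LYS4* and 169 bp at *LYS9*, with upstream shifts of -27 and -61 bp. *LYS1* (YIR034C), the saccharopine dehydrogenase that releases lysine in the last step, had a peak of 588 bp in *jhd2∆* (chromosome IX, 420104 to 420691, pileup 277), against 652 bp in WT (420152 to 420803, pileup 299). It was the member with the most negative difference, -64 bp, and had a downstream edge 48 bp further in together with an upstream edge 112 bp closer to the gene. *LYS2* (YBR115C), alpha-aminoadipate reductase, had a peak of 1002 bp in *jhd2∆* (chromosome II, 473035 to 474036, pileup 291), against 957 bp in WT (473087 to 474043, pileup 300), and *LYS12*, mitochondrial homoisocitrate dehydrogenase, was wider by 71 bp.

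The shikimate route leads to chorismate, from which phenylalanine, tyrosine and tryptophan branch. It starts at DAHP synthase, of which *ARO3* encodes the form inhibited by phenylalanine and *ARO4* the form inhibited by tyrosine. *ARO3* (YDR035W) had a peak of 1062 bp in *jhd2∆* (chromosome IV, 521763 to 522824, pileup 271), against 874 bp in WT (521711 to 522584, pileup 310). *ARO4* (YBR249C) had a peak of 1078 bp in *jhd2∆* (chromosome II, 716922 to 717999, pileup 286), against 1020 bp in WT (716995 to 718014, pileup 304). *ARO3* thus differed by 188 bp, with a downstream edge 240 bp further in, and *ARO4* by 58 bp, so that *ARO3* minus *ARO4* breadth was -16 bp in *jhd2∆* and -146 bp in WT. *ARO7* (YPR060C), chorismate mutase, had 607 bp in both genotypes, and its peak was displaced by 11 bp into the gene, from 675023 to 675629 in *jhd2∆* and from 675034 to 675640 in WT (chromosome XVI, pileup 290 in *jhd2∆* and 308 in WT). The pentafunctional *ARO1* was wider by 43 bp, chorismate synthase *ARO2* by 36 bp, prephenate dehydratase *PHA2* by 6 bp and prephenate dehydrogenase *TYR1* by 5 bp.

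In the tryptophan branch 4 of 5 genes were wider (80%, against 63.2% of all genes), by 23 to 47 bp. *TRP2* (YER090W) and *TRP3* (YKL211C) encode the components of anthranilate synthase. *TRP2* had 697 bp in *jhd2∆* (chromosome V, 337878 to 338574, pileup 297), against 662 bp in WT (337860 to 338521, pileup 327). *TRP3* had 866 bp in *jhd2∆* (chromosome XI, 37409 to 38274, pileup 283), against 819 bp in WT (37449 to 38267, pileup 328). The differences of 35 and 47 bp at this pair lay close together. *TRP1* (YDR007W), phosphoribosylanthranilate isomerase, had 697 bp in *jhd2∆* (chromosome IV, 461749 to 462445, pileup 309), against 707 bp in WT (461738 to 462444, pileup 327). Its downstream edge differed by 1 bp, and in both genotypes the peak was broader than the coding length of 674 bp. *TRP4* (anthranilate phosphoribosyltransferase) and *TRP5* (tryptophan synthase) were wider by 41 and 23 bp.

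Homoserine, threonine and methionine are made from aspartate, with sulfur assimilation feeding methionine, and over these 8 genes the median difference was 19 bp. *MET2* (YNL277W), homoserine acetyltransferase, had a peak of 1214 bp in *jhd2∆* (chromosome XIV, 117204 to 118417, pileup 286), against 1161 bp in WT (117189 to 118349, pileup 316), a difference of 53 bp. *MET3* (YJR010W), the ATP sulfurylase of sulfate assimilation, had a peak of 810 bp in *jhd2∆* (chromosome X, 456227 to 457036, pileup 287), against 808 bp in WT (456217 to 457024, pileup 323). *MET17* (O-acetylhomoserine sulfhydrylase) and *MET6* (methionine synthase) differed by 3 and 13 bp, so that 3 of 4 methionine genes lay below the all-gene median of 17 bp. *HOM6* (YJR139C), homoserine dehydrogenase, had a peak of 880 bp in *jhd2∆* (chromosome X, 689744 to 690623, pileup 302), against 772 bp in WT (689858 to 690629, pileup 330), with a downstream shift of 114 bp. *HOM3* (YER052C), the aspartokinase at the head of the family, had a peak of 788 bp in *jhd2∆* (chromosome V, 257270 to 258057, pileup 298), against 795 bp in WT (257282 to 258076, pileup 329). Aspartate semialdehyde dehydrogenase, *HOM2*, which acts between them, was wider by 47 bp. *THR4* (YCR053W), threonine synthase, had a peak of 931 bp in *jhd2∆* (chromosome III, 216630 to 217560, pileup 311), against 906 bp in WT (216609 to 217514, pileup 344).

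The largest difference of all members was in serine synthesis. *SER1* (YOR184W), phosphoserine aminotransferase, had a peak of 938 bp in *jhd2∆* (chromosome XV, 679293 to 680230, pileup 274), against 655 bp in WT (679264 to 679918, pileup 315). The difference of 283 bp was larger than that of 98.3% of genes, with a downstream edge 312 bp further in and an upstream edge 29 bp closer to the gene. The *SER1* peak was broader than those of 87.5% of genes in *jhd2∆* and 49.4% in WT. *SER2* (YGR208W), phosphoserine phosphatase, which acts next, had a peak of 854 bp in *jhd2∆* (chromosome VII, 911843 to 912696, pileup 293), against 822 bp in WT (911849 to 912670, pileup 336). For the entry step, *SER3* had no peak assigned, and its paralog *SER33* (YIL074C), which is not among the 60 genes, had 1011 bp in *jhd2∆* (chromosome IX, 221575 to 222585, pileup 296), against 953 bp in WT (221660 to 222612, pileup 329). Proline genes were close to each other: *PRO1* (YDR300C), gamma-glutamyl kinase, had 773 bp in *jhd2∆* (chromosome IV, 1062109 to 1062881, pileup 266), against 683 bp in WT (1062209 to 1062891, pileup 288). *PRO2* (YOR323C), gamma-glutamyl phosphate reductase, had 784 bp in *jhd2∆* (chromosome XV, 922167 to 922950, pileup 272), against 691 bp in WT (922276 to 922966, pileup 309). Their differences of 90 and 93 bp came with downstream shifts of 100 and 109 bp.

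Enzymes that act in mitochondria were grouped across pathways. They number 14, of which 13 had peaks (*ARG2* did not), and all 13 were wider in *jhd2∆* (against 63.2% of all genes), with a median difference of 80 bp and a range of 9 to 251 bp. Among the other members 32 of 44 were wider (72.7%), with a median of 35.5 bp and a range of -64 to 283 bp, and the median of all genes was 17 bp. Of these 13 enzymes, 8 belong to leucine, isoleucine and valine synthesis. Outside those pathways all 5 mitochondrial enzymes (*ARG5,6*, *ARG7*, *ARG8*, *LYS4* and *LYS12*) were wider, with a median of 80 bp, and 29 of 41 other members were wider, with a median of 32 bp. The ranges overlapped, and the pileup of the mitochondrial enzymes in WT had a median above that of 78% of genes, against 69.9% for the other members. The median coding length of the mitochondrial group was 1730 bp, against 1274 bp for the other members. Whether pileup or coding length had a part in the contrast was not tested.

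Differences were then read within quintiles of pileup and of coding length, each by itself, since both moved with breadth differences over all genes. In quintiles of all genes by WT pileup, from the lowest to the highest, members had median differences of 56.5, 60, 67.5, 53 and 19 bp (2, 7, 10, 14 and 24 members), and all genes had 44.5, 24, 15, 10 and -2 bp. The members' median lay above that of all genes in each of the 5 groups, and the first group rests on *ARG1* (133 bp) and *HIS6* (-20 bp). In the highest quintile, 16 of 24 members were wider in *jhd2∆*, against 48.1% of all genes there. In quintiles by coding length, from the shortest to the longest, members had medians of -13.5, 18, 60, 51 and 43 bp (2, 8, 27, 13 and 7 members), and all genes had -8, 16, 35, 29 and 20 bp. Members in the shortest quintile were *HIS3* and *TRP1*, and there the median lay below that of all genes. In quintiles by WT breadth, from the narrowest to the broadest, members had medians of -20, 2.5, 64, 23 and 47 bp (1, 2, 11, 11 and 32 members), and all genes had 23, 22, 13, 12 and 18 bp. The members lay below all genes in the 2 narrowest groups, which hold 3 members, and above them in the other 3. WT breadth is itself a term of the difference, and WT pileup comes from the same library, so neither grouping is independent of the difference.

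**Figure D4:**
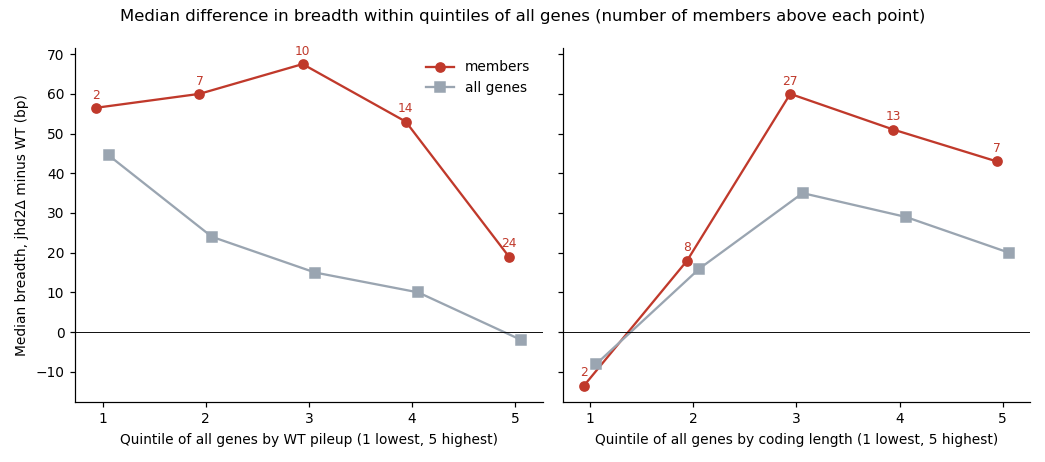
Median difference in breadth (*jhd2∆* minus WT, bp) of members (red, with their number above each point) and of all genes (grey) within quintiles of all genes by WT pileup (left) and coding length (right). Members lie above all genes in each quintile by pileup, and in the quintiles by coding length they do so except in the shortest, where 2 members have a median of -13.5 bp.

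Further genes of amino acid synthesis outside the 60 were read from a list of 21. It holds genes of the same pathways, of others such as asparagine and cysteine synthesis, and a carrier. In both genotypes 19 had a peak, of which 13 were wider in *jhd2∆* (68.4%, against 63.2% of all genes) and 6 narrower, with a median of 31 bp against 17 bp over all genes. By more than 100 bp, 4 of 19 were wider (21.1%, against 14.2% of all genes) and 0 narrower. These 4 were *ORT1*, the mitochondrial ornithine exporter (147 bp), *SHM2*, cytosolic serine hydroxymethyltransferase (136 bp), *CYS3*, cystathionine gamma-lyase (127 bp), and *ASN1*, asparagine synthetase (109 bp). The *ORT1* pileup was low, above 5.75% of genes in *jhd2∆* and 12.3% in WT. *LYS5*, which activates the *LYS2* product, had a peak of 557 bp in *jhd2∆* and none assigned in WT, and *ARO9*, an aromatic aminotransferase, had none in either. Next to *LYS5* 1 peak number was skipped in the WT list, so that interval may hold a call given to no gene. Next to *ARO9* 0 numbers were skipped in each list.

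Regulators of these pathways were read from a list of 13, of which 12 had a peak in both genotypes. Here 6 were wider in *jhd2∆* (50%, against 63.2% of all genes) and 6 narrower (against 35.9%), with a median of 2 bp and a range of -148 to 491 bp. *GCN4*, the general activator, had 989 bp in *jhd2∆* and 1001 bp in WT, and *GCN2*, the kinase that controls its translation, had 734 bp in *jhd2∆* and 882 bp in WT, with an upstream edge 153 bp closer to the gene. *MET4* (YNL103W), the activator of sulfur amino acid genes, had 1792 bp in *jhd2∆*, the broadest peak of that list (chromosome XIV, 427562 to 429353), against 1301 bp in WT (427539 to 428839), with a downstream shift of 514 bp. *MET4* and *LEU4* are neighbours transcribed away from each other. Their facing edges each lay closer to their own gene in *jhd2∆*, by 23 and 63 bp, and their outer edges lay 514 and 314 bp further in. *ARG82* and *BAS1* were wider by 205 and 119 bp, *LEU3* and *LYS14* differed by 16 and -36 bp, and *MET32* had a peak of 426 bp in WT and none assigned in *jhd2∆*. The *BAS1* pileup was low, above 6.64% of genes in *jhd2∆* and 1.73% in WT. Around *MET32* 2 peak numbers were skipped in the *jhd2∆* list, so that interval may hold a call not assigned to it.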

How the data were processed

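H3K4me3 ChIP-Seq of *jhd2∆* and WT cells was analysed, with 1 library per genotype. Pan-H3 and lysate libraries were not analysed here. Per the submitters' processing notes and the study's methods, Bowtie2 2.2.3 was used for alignment to a yeast reference from iGenomes, MACS2 (broad calling off) for the peak calls, and a peak was given to a gene whose 5′ coding region it overlapped. The genome build, the MACS2 version and threshold, and the control library are not given in the sources used here. The authors deposited each peak's position and breadth in bp, its pileup (a coverage signal) and, in the WT list, the coding length of its gene. The lists hold no read totals, so no interval based on reads is given. In the WT list 12 empty columns, 4 repeated columns and 1 ratio column were not used.

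Peaks were paired by gene, with the widest peak per gene, and the *jhd2∆* minus WT difference in breadth and both edge shifts were computed over all genes (strand from the systematic name). Percentiles are the share of other genes in the same list with a lower value. Symbols of all 60 members matched the RefSeq table of assembly R64, from which no coordinate was taken. No test was run, since genes are not replicates. Limits of 50, 100 and 200 bp, the choice and assignment of peaks, a minimum overlap of 50% and the removal of the 20% of peaks with lowest pileup were tried as alternatives. Every member could be named. Full values were given for members absent from a list, members differing by more than 100 bp, the extremes of each pathway, *HIS3*, *LEU2*, *LYS2* and 9 pairs of related enzymes. The values of 1 member, and of the pair that holds it, are not reported here, and it is counted in the totals. *HIS6* was given in full after its values were seen. The members and all gene lists were chosen with earlier results of these data known. Computation was done in Python 3.11.15 (pandas 2.3.3, numpy 2.4.6, scipy 1.17.1) and plots in matplotlib 3.10.9, and the edge computation was tested on simulated data.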

Additional observations from a re-analysis of the deposited data

How the results depend on the processing

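The members' counts, their medians of breadth and edge shifts, the pathway and mitochondrial medians and the pileup ranks were recomputed under alternative settings. Quintiles, correlations, pairs and the lists of other genes were not. Of 103 values, 0 changed sign, and 3 counts, each at another limit, moved by over 1.5 times: with 50 bp in place of 100 bp, 26 members were wider in *jhd2∆* (against 29.1% of all genes) and 1 was narrower (against 5.86%), and with 200 bp 2 were wider (against 3.62%), *SER1* and *LEU4*. Without the 20% of peaks with lowest pileup, *ARG1* and *HIS6* dropped out, and the median of members stayed at 45 bp against 12 bp for all genes, while that of histidine genes was -1.5 bp in place of -4 bp. The settings for peak choice, single peaks, shared peaks and a 50% overlap left the same 57 pairs of member peaks, so that all 19 values under each were identical by construction and say nothing of stability. Leaving out leucine, isoleucine and valine genes, an alternative chosen after seeing the data, gave a median of 35.5 bp over the other 46 members. No paired analysis was possible because only 1 H3K4me3 library per genotype was sequenced. With 1 library per genotype, differences of depth or enrichment between the libraries cannot be told apart from the genotype.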
